A study of Mus musculus with 6 samples.

Results

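Genes of the smooth muscle contractile apparatus were followed in mouse primary chondrocytes with and without Uhrf1, the protein that guides the maintenance DNA methyltransferase to newly replicated DNA. The members were chosen by name, and all 10 had a row in the table of 23351 genes: Acta2, Actg2, Cnn1, Tagln, Myh11, Myl9, Mylk, Tpm1, Tpm2 and Lmod1. Both groups were C57BL/6 cells freed by collagenase from the knee cartilage of pups at postnatal day 3. All were grown to confluence and then given recombinant human BMP-2 at 100 ng/ml for 24 hours, so the comparison is between treated cultures. The groups were Control (3 libraries) and Uhrf1 cKO, a conditional knockout (3 libraries). No source used here names the Cre driver, the conditional allele or the genotype of the controls. The labels do not say whether each library had its own animal or culture. The p-values therefore cover the spread between these samples only, which may be technical in part. Values are FPKM, fragment numbers scaled to transcript length and to library size, so that levels of different genes can be compared.

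In smooth muscle, contraction is driven by myosin moving along actin filaments. Calcium-bound calmodulin activates the myosin light chain kinase Mylk, which phosphorylates the regulatory light chain Myl9 on the heavy chain Myh11. The filaments are built from the actins Acta2 and Actg2, started by the nucleator Lmod1 and coated by the tropomyosins Tpm1 and Tpm2, calponin (Cnn1) and transgelin (Tagln, also called SM22). Many of these genes are known targets of serum response factor (SRF) and its myocardin-family partners, which bind a sequence called the CArG box near their starts. Fibroblasts that turn into myofibroblasts, and cultured mesenchymal cells under tension, also express several of them, Acta2 above all. Tpm1 and Mylk also make transcripts for non-muscle forms, and the table holds a single value per gene.

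The cells carried the markers of their label. Of 13 chondrocyte markers all were expressed, with summed FPKM of 12232 to 16071 in Control and 8174 to 9118 in cKO libraries, and 10 were lower in cKO, among them Matn1 (3.99-fold), Col11a2 (2.38-fold), Matn3 (2.37-fold) and Col9a1 (2.20-fold). Uhrf1 itself was 28.2, 22.9 and 30.6 FPKM in Control and 3.22, 3.17 and 2.73 in cKO libraries. Relative depth, read from the smallest steps of low values, was 0.864 to 1.01 with Control 1 set to 1. Y-linked transcript was present in Control 1, Control 3 and cKO 1 and close to 0 in the others. Each group thus mixed libraries with and without it, and its libraries were not all repeats of the same sample. The first part of the library names separates the genotypes completely, so an effect of what it records cannot be told apart from genotype.

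The contractile genes lie on 7 chromosomes (GRCm38, the assembly also called mm10). The RefSeq promoter table for GRCm38.p6 held a window for 7 of the 10 genes, from 250 bases before to 50 bases after the start. Windows of 4 members that rose in cKO cells are shown because they differ in SRF sequence. Capitals mark a CArG box, or the same motif with 1 substitution. The motif reads the same on both strands.
Acta2 (minus strand, chr19:34255324-34255623): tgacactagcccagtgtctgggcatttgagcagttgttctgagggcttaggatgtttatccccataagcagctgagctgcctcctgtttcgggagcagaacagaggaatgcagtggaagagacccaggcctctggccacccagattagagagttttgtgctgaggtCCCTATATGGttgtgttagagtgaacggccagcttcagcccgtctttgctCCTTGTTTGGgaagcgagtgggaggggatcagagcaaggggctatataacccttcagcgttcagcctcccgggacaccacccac
Myl9 (plus strand, chr2:156775214-156775513): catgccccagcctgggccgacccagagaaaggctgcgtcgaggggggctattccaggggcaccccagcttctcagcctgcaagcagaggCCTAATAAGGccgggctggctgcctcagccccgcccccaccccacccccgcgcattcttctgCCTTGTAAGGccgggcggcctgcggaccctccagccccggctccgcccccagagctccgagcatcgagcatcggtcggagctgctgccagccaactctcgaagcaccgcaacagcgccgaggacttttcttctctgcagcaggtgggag
Lmod1 (plus strand, chr1:135324563-135324862): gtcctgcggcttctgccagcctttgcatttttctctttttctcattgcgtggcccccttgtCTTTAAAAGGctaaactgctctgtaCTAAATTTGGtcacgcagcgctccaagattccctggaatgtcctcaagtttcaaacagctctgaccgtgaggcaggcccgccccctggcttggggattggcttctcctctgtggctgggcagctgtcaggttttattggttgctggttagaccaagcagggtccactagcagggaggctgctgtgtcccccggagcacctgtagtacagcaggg
Cnn1 (plus strand, chr9:22099003-22099302): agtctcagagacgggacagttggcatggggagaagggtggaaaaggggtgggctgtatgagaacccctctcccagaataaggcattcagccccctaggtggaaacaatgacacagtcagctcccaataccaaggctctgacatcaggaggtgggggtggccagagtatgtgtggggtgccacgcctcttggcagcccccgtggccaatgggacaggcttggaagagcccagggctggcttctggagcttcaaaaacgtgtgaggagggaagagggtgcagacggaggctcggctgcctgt

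Only the Myl9 window held an exact CArG box, CCTAATAAGG, which began 161 bases before the start. Among all 32851 windows of the same length, 1.63% held an exact match. With 1 substitution allowed, the windows of Acta2, Myl9, Tpm1 and Lmod1 each held 2 matches, and those of Cnn1, Mylk and Tpm2 held none. The looser motif was present in 21.1% of all windows. The Acta2 matches, CCCTATATGG and CCTTGTTTGG, began 84 and 34 bases before the start. A match is a description of these letters only. The windows also differed in their number of CG dinucleotides, the sites of DNA methylation, with 6 in Acta2, 6 in Cnn1, 7 in Lmod1, 4 in Mylk, 20 in Myl9, 20 in Tpm2 and 27 in Tpm1. The median over all windows was 7, with quartiles of 3 and 20. Methylation was not measured in these libraries.

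Most of the contractile genes rose in cKO cells, and none fell. Of the 10 genes, 9 passed the filter of at least 1 FPKM in 2 or more libraries, 7 rose and 2, Tagln and Tpm2, were not called (limma on log2(FPKM + 1), adjusted p under 0.05 over all genes tested). Lmod1 was under 1 FPKM in every Control library and passed the filter only through its cKO level, and of the other 8 tested genes 6 rose. Across the 11911 genes tested, 9.81% were called higher and 7.96% lower. The authors' deposited test, which covered 8 of the members, called 5 higher (Acta2, Actg2, Myl9, Tpm1 and Lmod1) and none lower, against 11.7% and 11.2% of all genes it tested. The number called higher with limma was 4 without cKO 2 and 4 without cKO 3. The median difference was 0.76 on the log2 scale for the 9 genes, 0.72 without Lmod1 and 0.00039 for all genes tested. In the 7 called genes every cKO library lay above every Control library, a pattern found in 18.4% of all genes tested. The list was chosen with earlier results of these data known, so these counts describe it and are not independent evidence of its direction. In whole-culture RNA, more cells of a type and more RNA per cell cannot be told apart.

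**Figure D1:**
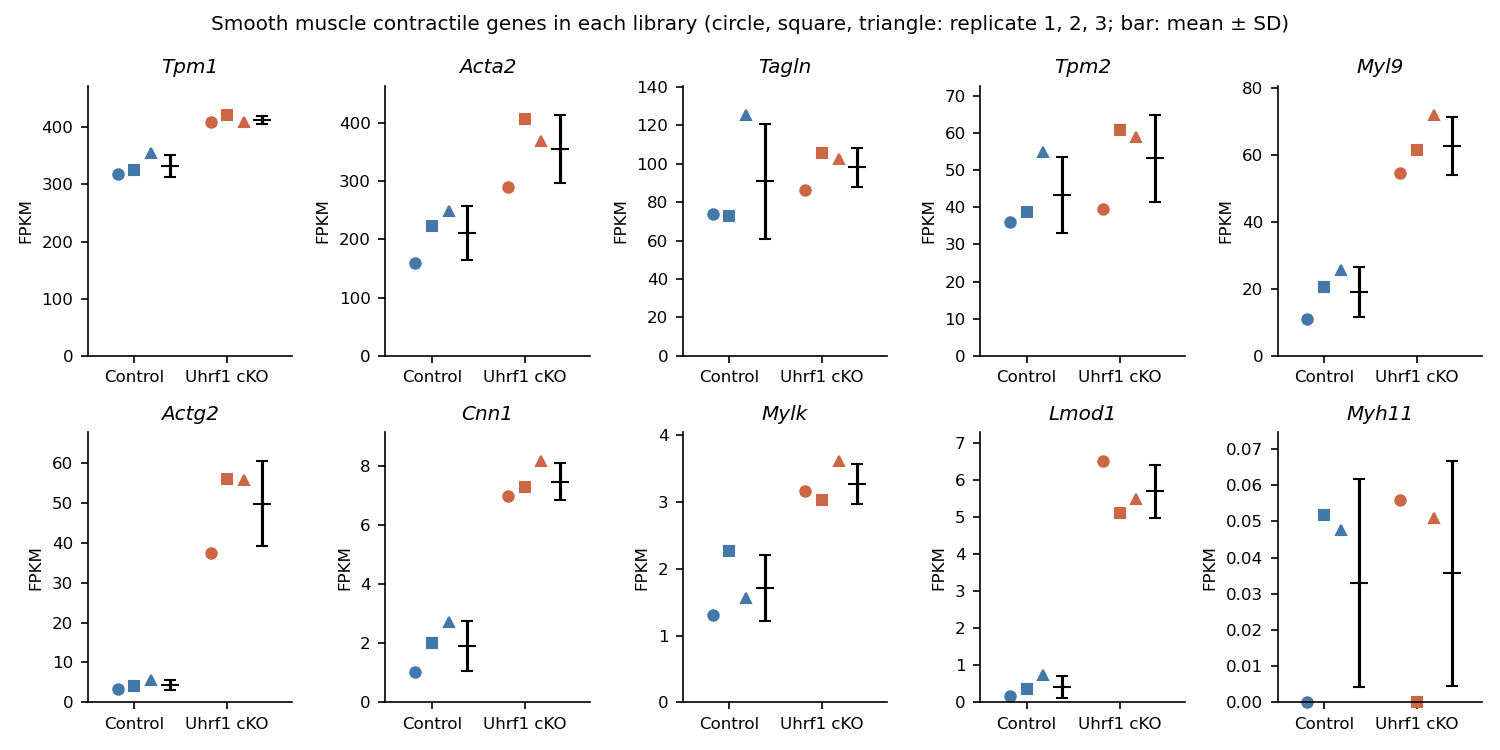
FPKM (y axis, linear, from 0) of the 10 contractile genes in each library, ordered by their Control mean, with Control in blue and Uhrf1 cKO in orange, and the mean ± SD of 3 libraries beside the points. The groups separate in 7 genes and overlap in Tagln, Tpm2 and Myh11, and no Myh11 value is above 0.0560 FPKM.

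Both smooth muscle actins rose, by very different amounts. Acta2, the vascular smooth muscle actin (chromosome 19, 34240336 to 34255585, minus strand), was abundant in both groups. It had 158.5, 224 and 248 FPKM in Control and 290.3, 405 and 368 in cKO libraries. The lowest cKO library lay above the highest control. The means were 210.0 ± 46.2 and 354 ± 58.7 FPKM (SD, n = 3), 1.69-fold higher in cKO, with a log2 difference of 0.76, a standard error of 0.17 and an adjusted p of 0.0137 (limma). The call was lost without cKO 2 or cKO 3 (adjusted p = 0.0522 and 0.0567).

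Actg2, the actin of enteric smooth muscle (chromosome 6, 83512909 to 83536251, minus strand), showed the largest ratio of means among the members that had a control mean of at least 1 FPKM. It was at 3.29, 4.11 and 5.69 FPKM in Control and 37.5, 55.9 and 55.8 in cKO libraries, with no overlap. The means were 4.37 ± 1.22 and 49.7 ± 10.6 FPKM (SD, n = 3), 11.4-fold higher in cKO. The log2 difference was 3.24 (standard error 0.19; limma, adjusted p = 7.05e-06). Within each library, the log2 ratio of Actg2 to Acta2 was -5.59, -5.76 and -5.45 in Control and -2.95, -2.86 and -2.72 in cKO libraries. The rise of Actg2 thus exceeded that of Acta2 by 2.76 on the log2 scale, with an exact two-sided permutation p = 0.1, the smallest that 3 against 3 allow (Benjamini-Hochberg adjusted p = 0.11 over 11 ratios of this kind).

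Of 21 paralogs of the members that are used outside smooth muscle, 16 were tested, 3 rose, 2 fell and 11 were not called, with a median log2 difference of 0.00028. Actc1, among those that rose, was under 1 FPKM in every Control library and passed the filter through its cKO level. The number that rose was 1 without Control 2, cKO 2 or cKO 3. Among the actins, the cytoplasmic Actb and Actg1, which build the cytoskeleton of every cell, were far more abundant and were not called. Actg1 measured 1109 ± 186 FPKM in Control and 1099 ± 69.0 in cKO (SD, n = 3; limma adjusted p = 0.991). Acta1, the skeletal muscle actin, had 0.718, 1.79 and 1.42 FPKM in Control and 20.4, 23.3 and 30.7 in cKO libraries. It rose 18.9-fold (limma adjusted p = 6.72e-06). The cardiac actin Actc1 was listed at 0 in all Control libraries and at 0.596, 1.33 and 2.98 FPKM in cKO libraries. Of the summed FPKM of these 6 actin genes, Acta2 made up 10.1% ± 1.14 in Control and 15.7% ± 1.33 in cKO libraries (SD, n = 3), Actg2 0.208% ± 0.0190 and 2.20% ± 0.310, and Acta1 0.0629% ± 0.0255 and 1.10% ± 0.201. The coding sequences of Acta2 and Actg2 share 84.4% of aligned bases, those of Acta2 and Acta1 85.4% and those of Actg2 and Acta1 85.1%, with a longest identical run of 29 bases in each pair. Longer identical runs joined Acta2 to the abundant Actg1 (56 bases) and Actb (47 bases), and Actg2 to Actc1 (38 bases). No source used here says how reads that match several actins were assigned, so the split among actin genes is uncertain.

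The tropomyosins, rods that lie along the actin filament and gate myosin binding, changed little in size. Tpm1 (chromosome 9, 67022590 to 67049672, minus strand) was the most abundant member in each of the 6 libraries. It was at 319, 325 and 355 FPKM in Control and 409, 422 and 409 in cKO libraries, so that the groups did not overlap. The rise was 1.24-fold, with a log2 difference of 0.31 and a standard error of 0.070 (limma, adjusted p = 0.0143), and the call was lost without any single cKO library (adjusted p = 0.0548 to 0.0616) and with a plainer variance model, limma without its trend and robust options (adjusted p = 0.0637). Tpm2 (chromosome 4, 43513726 to 43523583, minus strand) measured 36.0, 38.7 and 54.9 FPKM in Control and 39.6, 60.9 and 58.8 in cKO libraries. Its groups overlapped, through Control 3 and cKO 1. The log2 difference was 0.29, with a 95% confidence interval of -0.14 to 0.72 (limma, adjusted p = 0.341), which holds the size of the Tpm1 rise. Tpm4, the most abundant tropomyosin outside the list, was 285 ± 32.9 FPKM in Control and 289 ± 20.9 in cKO (SD, n = 3; limma adjusted p = 0.903).

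The 2 filament-binding proteins that are often used as smooth muscle markers differed from each other. Cnn1, calponin 1, which binds actin and restrains myosin (chromosome 9, 22099221 to 22109221, plus strand), had 1.03, 2.03 and 2.72 FPKM in Control and 6.98, 7.30 and 8.16 in cKO libraries. It rose 3.88-fold, with a log2 difference of 1.58 and a standard error of 0.21 (limma, adjusted p = 0.00104). The authors' deposited table gives Cnn1 a log2 fold change of 1.96 with q = 0.255, so it was not called there. In that table Cnn1 shares an interval of 333747 bases with 14 other genes. Tagln (chromosome 9, 45929628 to 45936058, minus strand) was at 74.0, 73.0 and 125 FPKM in Control and 86.4, 105.3 and 102.6 in cKO libraries. Control 3 was the highest of all 6 libraries, and the groups overlapped. The log2 difference was 0.15, with a 95% confidence interval of -0.27 to 0.58 (limma, adjusted p = 0.637). Without Control 3 it was 0.41 and was called higher (adjusted p = 0.0294). Tagln shares 1241 exonic bases with an antisense gene, Gm48529, and 108 with Pcsk7 on the opposite strand, and no source used here gives the strand setting of the authors' tools.

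The paralogs of these proteins also went different ways. Cnn2 rose 1.65-fold, from 71.1 ± 22.9 to 117 ± 7.48 FPKM (SD, n = 3; limma adjusted p = 0.0197), a call lost without Control 2, cKO 2 or cKO 3 (adjusted p = 0.0535 to 0.0766), with the plainer variance model (adjusted p = 0.0508) and in the authors' deposited test (q = 0.473). Cnn3, the most abundant calponin, was 228 ± 9.39 FPKM in Control cells and 205 ± 9.74 FPKM in cKO cells (limma adjusted p = 0.179). Tagln2 fell 1.39-fold, from 309.5 ± 31.9 to 223 ± 19.4 FPKM (limma adjusted p = 0.00948). The share of Tagln in the summed FPKM of the 3 transgelin genes was 20.6%, 19.6% and 26.6% in Control and 29.7%, 30.2% and 31.4% in cKO libraries. These shares did not overlap, although the level of Tagln itself did. Cnn1 remained a minor calponin, at 0.633% ± 0.253 of the calponin FPKM in Control and 2.27% ± 0.0904 in cKO libraries.

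**Figure D2:**
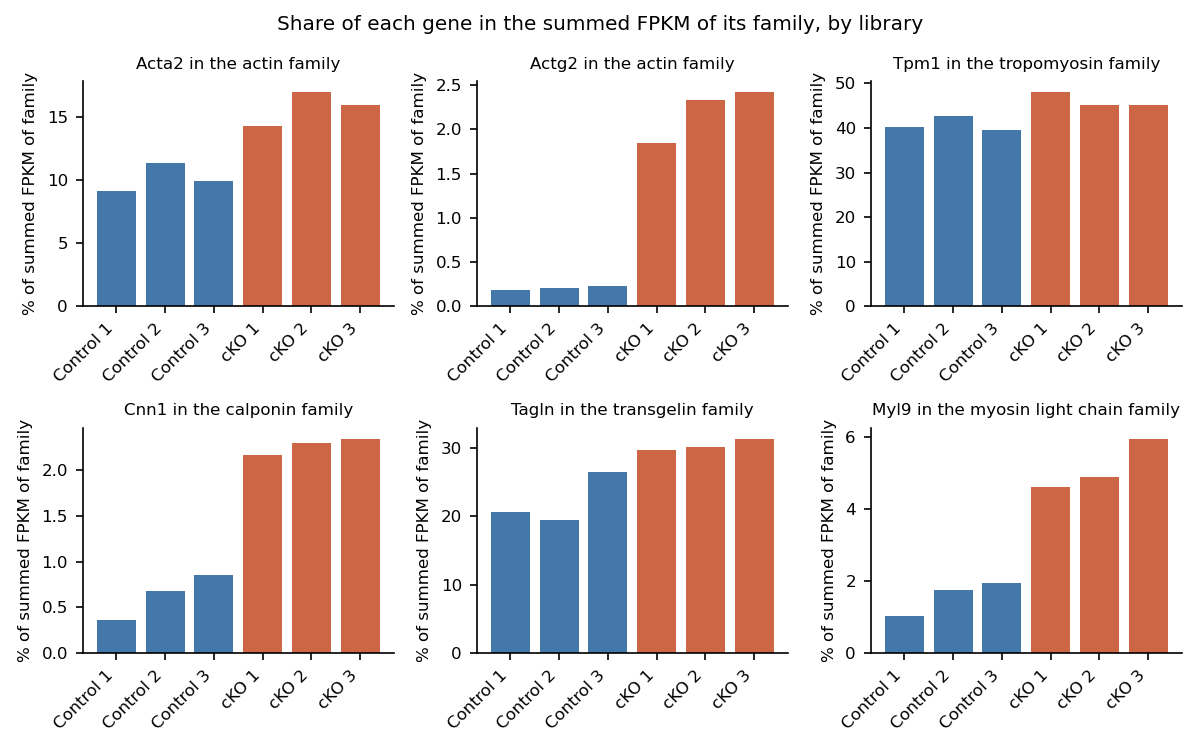
Share in percent (y axis, linear, from 0) of 6 contractile genes in the summed FPKM of their gene families, by library, with Control in blue and cKO in orange. Each bar is 1 library, and Acta2, for example, lies at 10.1% on average in Control and 15.7% in cKO libraries. In these 6 chosen panels every cKO bar is taller than every Control bar. The shares of Tpm2 (4.54%, 5.09% and 6.11% in Control, 4.65%, 6.52% and 6.47% in cKO libraries) and of Myh11, not shown, overlapped. In the families shown, shares of paralogs also separated, upward for Acta1, Actc1 and Cnn2 and downward for Actb, Actg1, Tpm3, Cnn3, Tagln2 and Myl12a. Those of Tpm4, Tagln3, Myl6 and Myl12b overlapped. How often shares separate over all genes tested was not examined.

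Of the myosin motor, the light chain and its kinase rose while the smooth muscle heavy chain was barely detected. Myl9 (chromosome 2, 156775408 to 156781657, plus strand) measured 11.1, 20.7 and 25.6 FPKM in Control and 54.7, 61.4 and 71.9 in cKO libraries. The groups lay far apart. Myl9 rose 3.28-fold, with a log2 difference of 1.73 and a standard error of 0.25 (limma, adjusted p = 0.00144). Mylk (chromosome 16, 34745199 to 35002436, plus strand) was low, at 1.30, 2.26 and 1.57 FPKM in Control and 3.16, 3.03 and 3.61 in cKO libraries. It rose 1.91-fold (log2 difference 0.67, standard error 0.18; limma, adjusted p = 0.0294). The Mylk call was lost without Control 1, Control 3 or any single cKO library (adjusted p = 0.0631 to 0.107) and with a covariate for Y-linked transcript (adjusted p = 0.0642). The authors' deposited test did not test Mylk. Mylk shares exonic bases with 2 antisense genes.

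Myh11 (chromosome 16, 14194527 to 14292188, minus strand), the heavy chain that defines differentiated smooth muscle, was listed at 0, 0.0517 and 0.0476 FPKM in Control and 0.0560, 0 and 0.0509 in cKO libraries. It did not pass the filter. Scaled to the depth of Control 1, each of the 4 values above 0 equalled a step of 0.0483 FPKM to within 0.0011 of a step, as a single fragment would give. Each library thus held 0 or 1 step of Myh11 in both groups, and a small difference at this level could not be detected. The non-muscle heavy chain Myh9 was 113 ± 29.8 FPKM in Control and 119 ± 10.2 in cKO (SD, n = 3; limma adjusted p = 0.730), and Myh10 fell 1.36-fold, from 24.2 ± 1.10 to 17.7 ± 1.03 (adjusted p = 0.0119). The light chains Myl6, Myl12a and Myl12b, shared with non-muscle myosin, were not called, and Myl6 was 793 ± 96.4 FPKM in Control and 792 ± 35.9 in cKO. Myl9 made up 1.57% ± 0.474 of the summed FPKM of these 4 light chains in Control and 5.15% ± 0.702 in cKO libraries (SD, n = 3). The coding sequences of Myl9 and Myl12b share 86.3% of aligned bases, so reads may be shared between them.

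Lmod1, leiomodin 1, which starts new actin filaments in smooth muscle (chromosome 1, 135324813 to 135368065, plus strand), went from near the detection limit to a clear signal. It had 0.165, 0.354 and 0.733 FPKM in Control and 6.51, 5.13 and 5.49 in cKO libraries. Fitted on log2(FPKM + 1), it was higher by 2.26 (standard error 0.19; limma, adjusted p = 5.77e-05), and the authors' deposited table gives q = 0.000520. Scaled to the depth of Control 1, the values were whole multiples of 0.0827 FPKM to within 0.0042 of a step, namely 2, 4 and 9 steps in Control and 68, 60 and 63 in cKO libraries. Lmod1 entered the test only through its cKO libraries, since every control lies under the filter. If a step is 1 fragment, the controls rest on few fragments, and no ratio of means is given against them. Its striated muscle paralogs Lmod2 and Lmod3 were listed at 0 in all Control libraries and were at 0.202 to 0.917 and 0.175 to 1.91 FPKM in cKO libraries, below the filter. Tmod3, a widely expressed tropomodulin that caps actin filaments, was 30.3 ± 3.31 FPKM in Control and 31.7 ± 3.26 in cKO (SD, n = 3; limma adjusted p = 0.738).

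**Figure D3:**
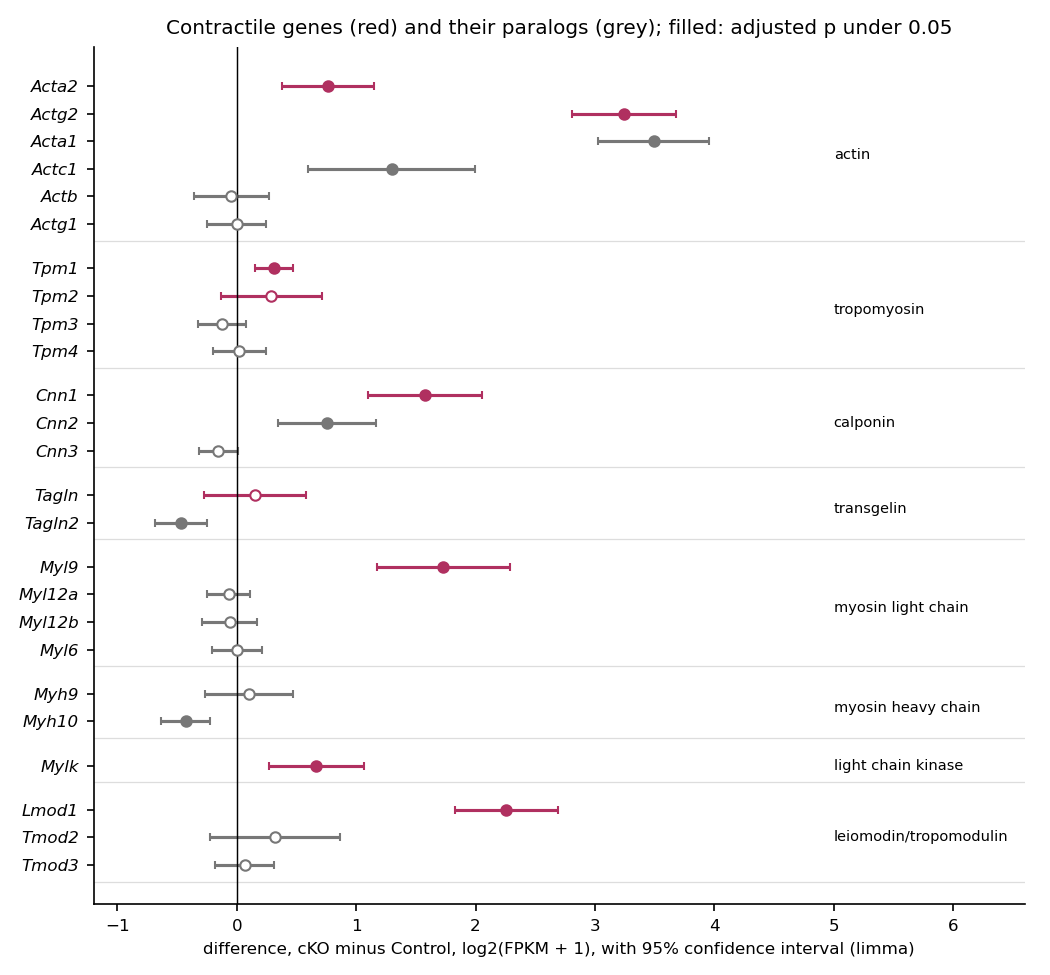
Difference of cKO minus Control on the log2(FPKM + 1) scale (x axis) with its 95% confidence interval from limma, for the 9 tested contractile genes (red) and their tested paralogs (grey), grouped by family; filled points passed an adjusted p of 0.05. Among the red points Actg2 lies at 3.24 and Tagln at 0.15. Among the grey points Acta1 lies at 3.49, Actc1 at 1.30 and Cnn2 at 0.75, while Tagln2 lies at -0.47, Myh10 at -0.43 and Cnn3 at -0.16. Actb, Actg1, Tpm4 and Myl6 lie near 0.

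The order of the members by mean FPKM was nearly the same in both groups. In Control it ran Tpm1, Acta2, Tagln, Tpm2, Myl9, Actg2, Cnn1, Mylk, Lmod1 and Myh11. Cnn1 and Mylk changed places between Control libraries. In cKO, Myl9 moved above Tpm2 and Lmod1 above Mylk, in every cKO library. In the cKO group the levels of Myl9, Tpm2 and Actg2 lay close together, at 62.7 ± 8.68, 53.1 ± 11.7 and 49.7 ± 10.6 FPKM (SD, n = 3). Within each cKO library Myl9 lay above Tpm2 and Tpm2 above Actg2, and these differences were not tested. Tpm1 and Acta2 made up 47.7% ± 4.76 and 29.6% ± 3.14 of the summed FPKM of the 10 genes in Control and 39.7% ± 3.56 and 33.7% ± 2.47 in cKO libraries. The sum was 604, 689 and 819 FPKM in Control and 934, 1126 and 1083 in cKO libraries.

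Libraries of a group also differed in a shared direction. Of the 9 tested members, Control 1 was the lowest control in 8 and Control 3 the highest in 8. Among the cKO libraries, cKO 1 was the lowest in 7. These orders were not counted over all genes tested, so they cannot be called particular to the members. Outside the list, Control 3 was the highest control for some genes, such as Actb at 599, 719.9 and 928 FPKM in the 3 controls. It was the lowest for others, such as Cnn3 at 233, 233 and 217 FPKM. The coefficient of variation was larger in Control than in cKO for all 9 members, as it was for 61.1% of all genes tested, and for Cnn1 it was 43.9% against 8.18%. The difference in spread between the groups was not tested.

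Genes that smooth muscle uses beside the contractile apparatus were examined next. Of 32 such genes, which link actin to the membrane or shape its bundles, 27 were tested, 13 rose and 14 were not called. Among those that rose, Des, Hspb7, Pdlim3 and Pgm5 were under 1 FPKM in every Control library and passed the filter only through their cKO level, and of the other 23 tested genes 9 rose. None fell with limma, none was lower at an unadjusted p under 0.05, and 1 was lower without Control 1 and 1 in the authors' deposited test. Their median log2 difference was 0.41. Des, a muscle intermediate filament, was 0.269 ± 0.0972 FPKM in Control and 10.7 ± 3.09 in cKO (SD, n = 3; limma adjusted p = 1.03e-05; q = 0.138 in the authors' deposited test). Hspb7, a small heat shock protein of muscle, was 0.486 ± 0.195 and 5.78 ± 0.860 FPKM (adjusted p = 4.15e-05). Filip1l rose 2.51-fold and the collagen-binding integrin Itga1 1.56-fold (adjusted p = 0.00198 and 0.00378). Des and Hspb7 are also expressed in striated muscle. Kcnmb1, a channel subunit of smooth muscle, was listed at 0 in every library.

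Of 13 SRF and myocardin-family factors 11 were tested with limma, and none was called. At an unadjusted p under 0.05, a threshold whose share over all genes was not counted, Mef2a, Mef2c and Mef2d were higher and Klf4 was lower. The largest of these differences was that of Mef2c, a MADS-box factor, at 4.87 ± 0.642 FPKM in Control and 7.09 ± 1.05 in cKO (SD, n = 3; limma adjusted p = 0.0596), with no overlap. In 4 of the 11, every cKO library lay above every Control library, a pattern found in 18.4% of all genes tested. Without Control 3, under both other scalings and in the authors' deposited test, 1 gene was called higher. Klf4, a repressor of smooth muscle genes, was 21.2 ± 2.07 FPKM in Control and 17.2 ± 0.525 in cKO (SD, n = 3; limma adjusted p = 0.0894), and Tead1 was 17.0 ± 0.101 and 18.4 ± 0.538 FPKM (limma adjusted p = 0.443). Srf itself was 4.61, 5.01 and 8.62 FPKM in Control and 7.45, 7.89 and 7.62 in cKO libraries (limma adjusted p = 0.284), with overlap through Control 3. Myocd, the coactivator myocardin, did not pass the filter, at 0.0649, 0 and 0.0639 FPKM in Control and 0.225, 0.134 and 0.205 in cKO libraries. The Myocd groups did not overlap, but values this near 0 may rest on few fragments, and the difference was not tested. Of 15 SRF target genes, a list that also holds Myl9, 5 rose (8 without Control 3). None was lower with limma, at an unadjusted p under 0.05 or in the authors' deposited test. The focal adhesion gene Tes rose 2.07-fold, the matricellular gene Ctgf 1.73-fold and vinculin (Vcl) 1.39-fold (limma adjusted p = 0.00283, 0.00114 and 0.00617). The immediate-early genes Egr1, Fos, Junb and Ier2 were not called.

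Of 22 genes that regulate actomyosin, 21 were tested, 1 rose and 2 fell. The kinase Limk2 rose 1.40-fold. Its call, but not its direction, was lost when Control 1, Control 3 or any single cKO library was left out (limma adjusted p = 0.0505 to 0.101), with the Y-linked covariate (adjusted p = 0.0621) and in the authors' deposited test (q = 0.219). Calm2, which encodes calmodulin, fell 1.31-fold and the actin-severing Cfl2 1.30-fold (adjusted p = 0.00893 and 0.0191). The call of Calm2 was lost without cKO 3 (limma adjusted p = 0.0529), and that of Cfl2 without any single cKO library (adjusted p = 0.0571 to 0.0666). TGF-beta is a known inducer of contractile genes. Of 17 of its ligands, receptors and readouts, 4 rose and 2 fell (0 without cKO 2 or cKO 3). Ltbp2 rose 2.16-fold and Skil 1.93-fold (limma adjusted p = 0.00656 and 0.000746), and Ctgf is in this list too. The 2 that fell were the ligand Tgfb3 and the readout Id2, and the authors' deposited test called 1 gene of the list lower. Tgfb1, Tgfb2 and the receptors Tgfbr1 and Tgfbr2 were not called.

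**Figure D4:**
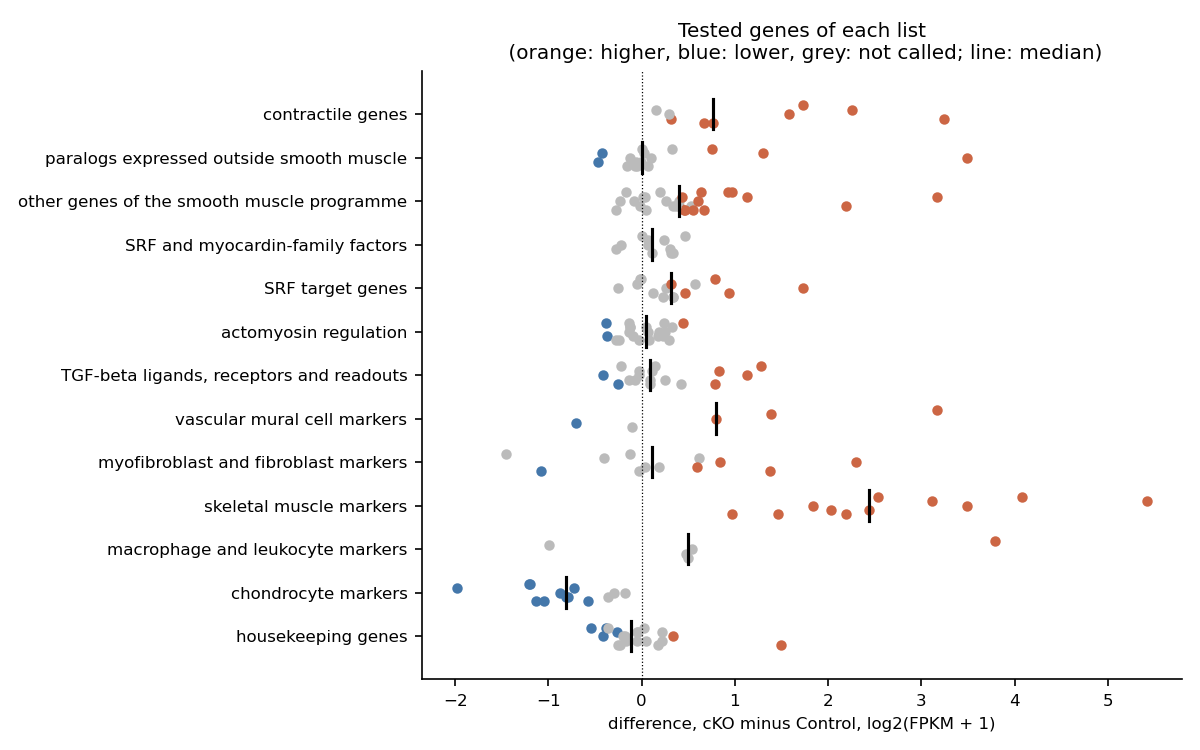
Difference of cKO minus Control on the log2(FPKM + 1) scale (x axis) for each tested gene of the contractile list and of 12 other lists, 1 point per gene, with orange for genes called higher, blue for genes called lower, grey for genes not called and a line at the median. The contractile median lies at 0.76, that of the skeletal muscle markers at 2.44 and that of the chondrocyte markers at -0.81.

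Markers of other cells that use these genes were measured beside them. Vascular mural cells, the pericytes and vascular smooth muscle cells, gave no uniform picture. Of 12 markers 5 were tested, 3 rose, Des among them, and 1 fell. Their summed FPKM was 78.8 to 106 in Control and 81.7 to 95.1 in cKO libraries. Rgs5, Notch3 and Abcc9 were at or under 0.593 FPKM in every library, and Kcnj8 and Higd1b were listed at 0 in all. Cspg4 fell 1.67-fold (limma adjusted p = 0.0151), a call lost without Control 2 or cKO 1, while the peptidase gene Anpep rose 3.22-fold (adjusted p = 0.000248). Of 8 endothelial markers none passed the filter, with summed FPKM of 0.200 to 0.399 in Control and 0.394 to 0.980 in cKO libraries, and Tie1, Emcn and Cldn5 were listed at 0 in all.

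Of 12 myofibroblast and fibroblast markers, all tested, 4 rose and 1 fell (3 without Control 2, 2 without cKO 1 and 3 in the authors' deposited test). Their summed FPKM was 7007 to 7853 in Control and 9343 to 10087 in cKO libraries. Itga11, a collagen receptor of fibroblasts, rose 5.41-fold, from 7.78 ± 1.51 to 42.1 ± 5.76 FPKM (SD, n = 3; limma adjusted p = 1.08e-05). Postn rose 2.60-fold and Tnc 1.79-fold, while S100a4 fell 2.13-fold (limma adjusted p = 0.000727, 0.000197 and 0.00435). At an unadjusted p under 0.05, 5 of the 12 were higher and 3 lower, the latter Pdgfra, Thy1 and S100a4. The share of all genes at that threshold was not counted. Of 8 macrophage and leukocyte markers, 5 were tested and only Fcer1g was called (a second gene was called higher without cKO 1, and Lyz2 lower without Control 3), and it was higher in cKO (limma adjusted p = 1.20e-05; q = 0.335 in the authors' deposited test). Fcer1g was under 1 FPKM in every Control library. The authors' deposited test called none of this list higher and 1 lower, the lysozyme gene Lyz2, with a log2 fold change of -1.40 and q = 0.000520. Lyz2 was 46.6, 22.9 and 7.02 FPKM in Control and 7.41, 9.56 and 11.97 in cKO libraries, with overlap through Control 3, and was not called by limma (adjusted p = 0.361). Their summed FPKM was 9.95 to 50.1 in Control and 27.3 to 37.1 in cKO libraries.

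Skeletal muscle markers were higher in cKO libraries too. Of 17, 11 passed the filter and all 11 were called higher with limma, against 9.81% of all genes tested. The authors' deposited test called 5 higher. Acta1 is counted in this list and among the paralogs. However, 8 of the 17 were listed at 0 in every Control library and could pass the filter through their cKO level alone. Of the 11 tested, 6 were under 1 FPKM in every Control library. Their summed FPKM was 6.99 to 9.18 in Control and 130.0 to 211 in cKO libraries. Mylpf, the fast skeletal light chain, was 42.7, 61.8 and 89.7 FPKM in cKO 1, 2 and 3. Actg2 was 37.5, 55.9 and 55.8 and Acta2 was 290.3, 405 and 368 FPKM in the same libraries. The part of the skeletal muscle, fibroblast and chondrocyte markers in the contractile result was not tested. Of 20 housekeeping genes, 2 rose and 4 fell, with a median log2 difference of -0.11. The number that fell was 8 without Control 1 and 2 without cKO 2, and the number that rose was 1 without Control 2, cKO 2 or cKO 3 and 4 under upper-quartile scaling.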

How the data were processed

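RNA was measured in 6 libraries. Per the labels' protocols, RNA samples were kept if their integrity number exceeded 8, and a stranded mRNA kit was used. Per the submitters' processing notes, the tools were TopHat and Cufflinks and the build was mm10. No source used here gives versions, annotation, strand setting or the scaling across libraries. The authors deposited 1 gene table with the FPKM of each library and each group's mean. Its other columns are, per the file headers, the log2 fold change, the score of the test, its p-value and its q-value. Of its 23351 genes, 27 had symbols turned into dates and 101 held several symbols, and 1 line was empty.

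A count test does not suit FPKM and none was used. Absolute depth is unknown. Relative depth was the most frequent ratio of low values of a gene between libraries. The test was limma 3.58.1 (R 4.3.3, trend and robust options, two-sided) on log2(FPKM + 1) for the 11911 genes that reached 1 FPKM in at least 2 libraries. P-values were adjusted by Benjamini and Hochberg's method over these genes, with a threshold of 0.05. The procedure was checked on simulated data, with shifts added only to genes with a mean log2(FPKM + 1) above 2. It recovered 28.4% of log2 shifts of 0.5, 82.1% of shifts of 1 and 97.0% of shifts of 2. A gene that was not called may therefore still differ by such a small amount as 0.5. Fitted differences understate the change of low genes. Folds are ratios of group mean FPKM, with none against a mean under 1 FPKM. Ratios between genes used the exact permutation test.

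The members, gene lists and tests were chosen with earlier results of these data known. Named genes are the 10 members, Uhrf1, up to 4 called genes per list with the largest ratio and at least 5 FPKM in the higher group, or the 2 most expressed where fewer than 2 were called, and the most expressed paralog per family. Other genes named, such as Srf, Myocd, Actb and Actc1, were chosen after their values were seen. A gene that the rule also names is not reported here. Coding identity used GENCODE M21 transcripts and Biopython 1.88. The alternatives changed the threshold, filter, scaling, pseudocount or variance model, set a minimum difference, added a replicate block or a Y-linked covariate, used the authors' deposited test, or left out each library. Same-numbered libraries are not said to be paired.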

Additional observations from a re-analysis of the deposited data

How the results depend on the processing

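Under all alternatives run, no tested contractile gene changed direction. Actg2, Myl9 and Lmod1 were called higher under each of 18 alternatives, and Cnn1 under all but the authors' deposited test. The number of contractile genes called higher was 7 with all libraries, 4 to 7 without any single library (4 without cKO 2 or cKO 3), 4 at a threshold of 0.01 and 4 with a log2 difference of at least 1, and none was called lower. A stricter threshold or a minimum difference can only remove calls. The cause of the changes without single libraries was not tested.

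Over all genes, 1168 were called higher and 948 lower. These numbers were 647 and 377 at a threshold of 0.01, 431 and 75 with a log2 difference of at least 1, and 765 to 1095 and 503 to 931 without a single library. The number of higher genes was 765 without cKO 3. The number of lower genes was 598 without cKO 1, 625 without cKO 2 and 503 without cKO 3. Upper-quartile scaling gave 1430 higher and 666 lower genes, and median-ratio scaling 1291 and 742. Upper-quartile scaling moved the median of all genes by 0.060. Over the other lists together, 43 genes were called higher and 22 lower, against 22 and 6 with a log2 difference of at least 1.

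Direction changed only in genes that were not called. Without single libraries the log2 differences ranged from -0.084 to 0.13 for Actg1, -0.074 to 0.090 for Tpm4, -0.087 to 0.29 for Myh9, -0.083 to 0.092 for Myl6 and -0.010 to 0.15 for Tmod3. Actg1 was 0.066 and 0.039 under upper-quartile and median-ratio scaling and 0.13 and 0.047 without Control 3 and cKO 1. Tpm4 was -0.074, -0.015 and -0.00079 without Control 2, cKO 2 and cKO 3. Myh9 was -0.087 without Control 1. Myl6 was -0.015 with the Y-linked covariate, -0.083 and -0.030 without Control 1 and cKO 2, and -0.0032 in the authors' deposited table. Tmod3 was -0.0012 and -0.010 without Control 2 and cKO 2.

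Same-numbered libraries share only a number. Their deviations from the group means correlated at 0.17, 0.026 and -0.044 for numbers 1, 2 and 3, and only number 1 correlated best with its own number. With a replicate block 1151 genes were called higher and 946 lower, and 7 contractile genes were called higher. Values near the smallest step, as for Myh11 and the Lmod1 controls, limit what these libraries can show.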
